A study of Mus musculus with 8 samples.

Results

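The 32 genes described here carry out mitochondrial fatty acid oxidation and the formation of ketone bodies in the liver. They were taken by gene symbol from a list of transporters and enzymes of the pathway. Each symbol was found once among the 35638 genes of the deposited table, and all 32 are protein-coding genes. RNA was sequenced from 8 samples of frozen liver from mice of mixed C57/B6 and 129 background at postnatal day 90. In 4 samples (WT) the genotype was Arid1a Fl/Fl, with loxP sites in Arid1a, a subunit gene of the SWI/SNF chromatin remodeller, and in 4 samples (KO) it was Arid1a Fl/Fl; Alb-cre. Both groups thus carry the floxed alleles. Alb-cre expresses Cre recombinase from the albumin promoter, which is active in hepatocytes. Recombination in each liver cell type was not measured here. No group with Alb-cre alone was analysed here, so loss of Arid1a and presence of Cre cannot be told apart. The sex of the mice and their feeding state at collection are not given in the labels. The comparison of KO with WT asks how the oxidation pathway, which the title of the series names, differs without hepatocyte Arid1a.

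Fatty acids enter mitochondria as carnitine esters and are then shortened in rounds of dehydrogenation, hydration, a second dehydrogenation and thiolysis. The electrons pass through the electron transfer flavoprotein or NADH to the respiratory chain, and the acetyl-CoA is burned or, in liver, turned into ketone bodies for export. The pathway is known as a main source of energy for the fasting liver, and PPAR-alpha is its best known transcriptional activator.

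Values are FPKM, which scale reads by gene length and sequencing depth. Judged by the spacing of low values, libraries held about 12400000 to 15200000 reads, with 55.6 to 60.4% of low values within 0.1 of a whole number of reads, so these depths are estimates. The values count the whole gene, and the labels do not say which exons the loxP sites flank. Arid1a ranged from 3.998 to 8.38 FPKM in WT and from 2.59 to 3.46 FPKM in KO. The groups did not overlap in this gene, and its limma adjusted p was 0.316. Albumin and 9 other hepatocyte genes summed to 33974 to 46132 FPKM in WT and to 37044 to 55175 FPKM in KO, and each of them was detected in every library. The 11 macrophage markers summed to 6.56 to 14.7 FPKM in WT and to 20.4 to 153 FPKM in KO, lowest of the KO libraries in KO 2. Of the 10 tested with limma 0 passed, and all 10 had an unadjusted p under 0.05, as had 9.81% of all tested genes in either direction. Adgre1, Cd68, Csf1r, Vsig4 and Marco reached the filter of 1 FPKM only through their KO values. Without WT 4 and KO 2, all of the 10 except Cd68 and Marco passed as higher, as did 0.63% of all genes. KO 2 was known to be low in these markers, so this is a description. Endothelial markers summed to 2.67 to 6.80 FPKM (WT) and 9.18 to 24.1 FPKM (KO), and stellate cell markers to 1.93 to 6.10 FPKM (WT) and 9.29 to 22.8 FPKM (KO). The 6 bile duct markers summed to 0.269 to 0.792 FPKM (WT) and 0.527 to 6.82 FPKM (KO). Of these Spp1 averaged 0.220 FPKM (WT) and 3.66 FPKM (KO). Krt19, Krt7 and Epcam were listed at 0 in every WT library and averaged 0.0273, 0.00206 and 0.0269 FPKM in KO. Sox9 and Cldn7 went the other way, from 0.298 and 0.0299 FPKM (WT) to 0.0558 and 0 FPKM (KO). The 6 lymphocyte markers found summed to 0.0161 to 0.290 FPKM (WT) and 0.310 to 1.30 FPKM (KO), and 0 of them reached the filter for testing. In bulk tissue, fewer cells of a type and less RNA per cell cannot be told apart. Nothing in the labels says that replicates came from separate animals, so each p-value speaks only of how far these libraries scatter, and that scatter may be technical.

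Most genes of the pathway had lower mean levels in KO, but no single member passed the test. On the scale of log2(FPKM + 1), 28 of the 32 members had a negative change and 4 a positive one. The median of the 32 changes was -0.34, beside -0.03 over the 11266 genes tested, of which 54.5% had a negative change. With limma, 0 members passed an adjusted p of 0.05 in either direction, where 0.355% of all genes passed as lower and 0.408% as higher in KO. At an unadjusted p under 0.05, 4 members were lower (Crat, Acad9, Hadha and Acsm1) and 0 higher, and 9.81% of all genes were under that limit in either direction. The count of lower members moved with the scaling, to 12 with equal sums, 8 with quantile normalization and 7 with median ratio scaling. Of all genes 11%, 11.2% and 11.2% were then under that limit in either direction. The count moved with the libraries too, to 14 without KO 2 (9.21% of all genes). It was 6 without WT 2 (9.13%) or without both WT 4 and KO 2 (9.96%). It was 2 without WT 4 (10.7%) or KO 1 (9.06%) and 1 without KO 3 (8.09%). Of the members 1 was higher with quantile normalization, with median ratio scaling and without KO 1. For 1 member, Acsm1, all 4 KO values were under all 4 WT values, against 3.18% of all genes. For 0 members were all KO values over all WT values, against 3.05% of all genes. The smallest adjusted p among the members was 0.187, again for Acsm1.

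Libraries of 1 group differed as much as the groups did. WT 4 held the highest of the 4 WT values in 27 members and KO 2 the highest of the 4 KO values in 28. Matching shares over all tested genes are not given here, so these counts alone do not tell a pathway trait from a library trait. The median log2(FPKM + 1) of the 32 genes was 5.12, 4.85, 5.01 and 5.71 in WT 1 to WT 4, and 4.60, 5.29, 4.45 and 4.98 in KO 1 to KO 4. By that median KO 2 stood above WT 1 to WT 3, and KO 4 above WT 2. KO 1 was below the range of the 4 WT libraries in 27 members and KO 3 in 26. KO 4 was below it in 13 members and KO 2 in 2, while KO 2 was above it in 6. Over all tested genes the shares below the WT range were 32.5% in KO 1, 22.1% in KO 2, 23.0% in KO 3 and 12.9% in KO 4. Above the WT range were 1, 6, 1 and 2 members in KO 1 to KO 4. The shares of all tested genes above it were 13.7%, 16.5%, 16.9% and 28.1%. Arid1a in KO 2, at 2.86 FPKM, was within the range of the other KO libraries. The median change of the members was -0.21 without WT 4, -0.51 without KO 2 and -0.34 without both.

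**Figure D1:**
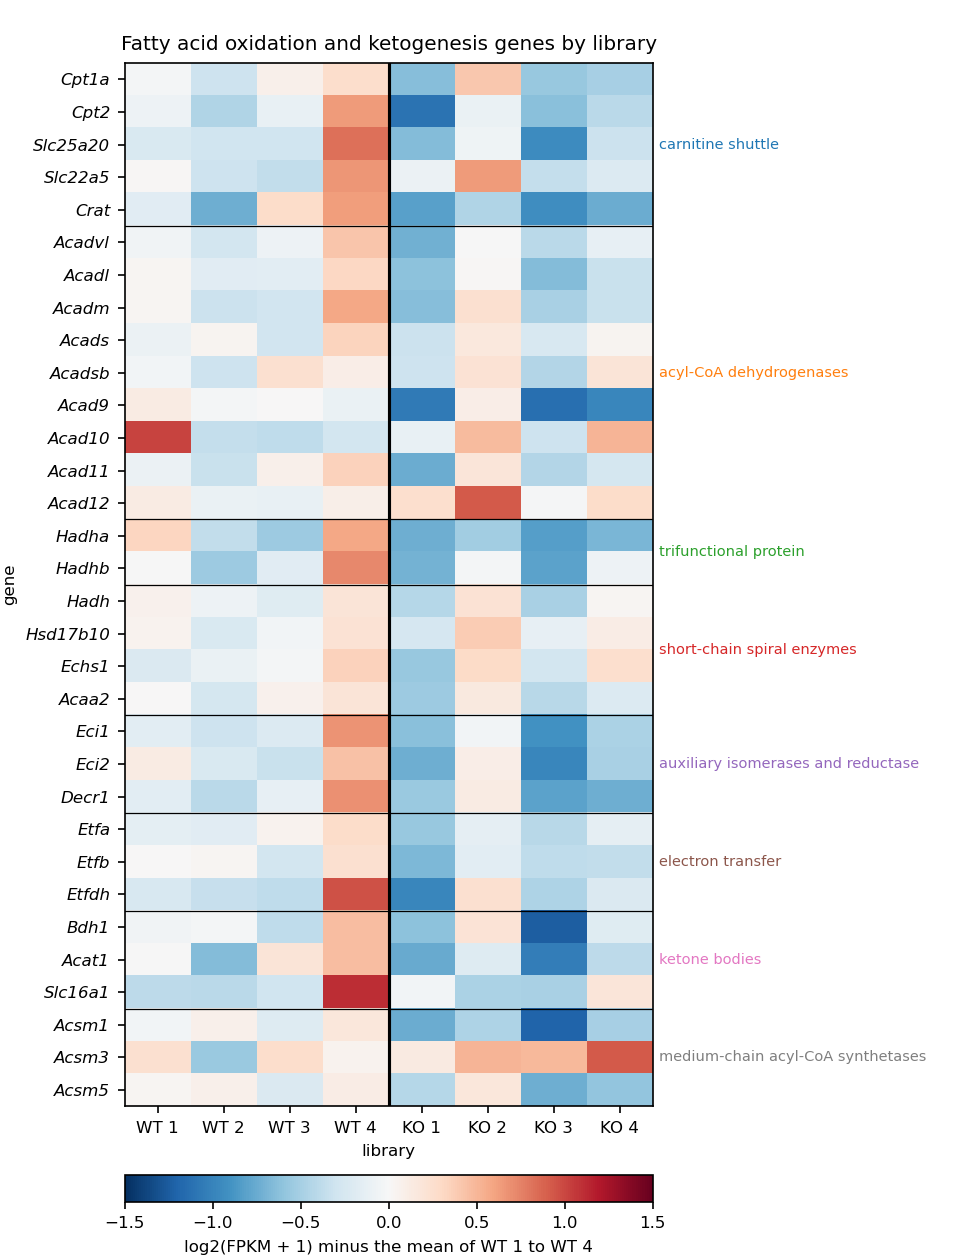
Level of each of the 32 genes (rows, grouped by step) in each library (columns) as log2(FPKM + 1) minus the mean of WT 1 to WT 4; red is above and blue below that mean. WT 4 is the highest WT library in 27 genes, KO 2 the highest KO library in 28, and KO 1 and KO 3 are the lowest of all 8 libraries in 12 and 16 genes. Matching shares over all tested genes are not given.

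In the carnitine shuttle, which carries long acyl chains over the mitochondrial membranes, all 5 members had a negative change (median -0.50). Crat encodes carnitine acetyltransferase, which exchanges short acyl groups between CoA and carnitine. The gene lies on chromosome 2 (GRCm38, 30400471 to 30415813, minus strand). Crat was at 4.06, 2.44, 5.93 and 7.83 FPKM (WT 1 to WT 4) against 2.25, 3.19, 1.99 and 2.41 FPKM (KO 1 to KO 4). KO 2 was above WT 2, and the other 3 KO libraries were below all of WT. The means were 5.07 ± 2.33 FPKM for WT against 2.46 ± 0.519 FPKM for KO (SD, n = 4 each), and the change was -0.73 ± 0.29 (SE; 95% interval -1.37 to -0.10; limma adjusted p = 0.414). An exact two-sided permutation test of the 8 Crat values gave p = 0.0571, where 0.0286 is the smallest that 70 labelled splits allow. Crat shares exon bases with Dolpp1 on the opposite strand, which averaged 4.99 FPKM (WT) and 3.64 FPKM (KO), and how strand was treated in counting is not stated.

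Cpt1a, the rate-controlling carnitine palmitoyltransferase of the outer membrane, was at 52.3, 43.1, 56.6 and 64.7 FPKM (WT 1 to WT 4) against 33.99, 71.1, 35.8 and 37.7 FPKM (KO 1 to KO 4). KO 1, KO 3 and KO 4 were below every WT library, and KO 2 was the highest of all 8. The change of Cpt1a was -0.33 ± 0.26 (SE; 95% interval -0.90 to 0.24; limma adjusted p = 0.791), and -0.57 without KO 2. Cpt2, which rebuilds acyl-CoA inside the mitochondrion, was at 28.3 ± 10.1 FPKM for WT against 18.7 ± 5.53 FPKM for KO (SD, n = 4 each), with a change of -0.56. Slc25a20, the carnitine-acylcarnitine carrier, was at 19.3 ± 8.999 FPKM for WT against 12.9 ± 3.603 FPKM for KO (SD, n = 4 each), with a change of -0.50. Its value in WT 4 was 32.7 FPKM against 14.5 to 15.2 FPKM in WT 1 to WT 3, and without WT 4 the change was -0.22. Slc22a5, the carnitine importer of the plasma membrane, was at 3.63 ± 1.65 FPKM for WT against 3.59 ± 1.56 FPKM for KO (SD, n = 4 each), and WT 4 and KO 2 were the high libraries of their groups at 5.998 and 5.88 FPKM. Its change of -0.00409 (95% interval -0.66 to 0.65) leaves a difference of either sign possible.

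The acyl-CoA dehydrogenases introduce the first double bond, each for its own chain lengths or branched chains. Of 9 members 7 had a negative and 2 a positive change (median -0.30). Acad9 encodes a dehydrogenase of long chains that is also an assembly factor of respiratory complex I. The gene lies on chromosome 3 (GRCm38, 36065979 to 36092853, plus strand). It was at 8.85, 7.83, 8.07 and 7.42 FPKM (WT 1 to WT 4) against 3.32, 8.65, 3.11 and 3.57 FPKM (KO 1 to KO 4). The 4 WT libraries were close together, KO 1, KO 3 and KO 4 were below all of them, and KO 2 was within their range. The means were 8.04 ± 0.602 FPKM for WT against 4.66 ± 2.66 FPKM for KO (SD, n = 4 each), and the change was -0.77 ± 0.27 (SE; 95% interval -1.38 to -0.16; limma adjusted p = 0.351). Without KO 2, whose Acad9 value was known to be high when it was left out, Acad9 passed the test as lower, with a change of -1.06 (limma adjusted p = 0.0289), and it also passed without both WT 4 and KO 2 (-1.09, limma adjusted p = 0.0470). Both values are descriptions for that reason. Of the 11266 genes tested, 44 passed as lower and 90 as higher without KO 2. Without both libraries 0.311% of all genes passed as lower and 0.63% as higher. In the other 7 fits that left out 1 library the limma adjusted p of Acad9 was between 0.374 and 0.632. Acad9 shares exon bases with Gm43079 on the same strand, which was at 2.10 to 6.94 FPKM.

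The dehydrogenases of straight chains had negative changes with intervals that include 0. Acadvl, for very long chains, was at 75.2 ± 16.4 FPKM for WT against 60.5 ± 13.01 FPKM for KO (SD, n = 4 each), with a change of -0.31. Acadl, for long chains, was at 39.5, 34.1, 34.4 and 47.9 FPKM (WT 1 to WT 4) against 24.9, 38.9, 24.3 and 30.4 FPKM (KO 1 to KO 4). The groups overlapped in Acadl through KO 2, and the change was -0.40 ± 0.20 (SE; 95% interval -0.85 to 0.06; limma adjusted p = 0.594). Acadm, for medium chains, was at 59.99 ± 19.04 FPKM for WT against 48.1 ± 14.03 FPKM for KO (SD, n = 4 each), with a change of -0.30, and -0.11 without WT 4. Acads, for short chains, was at 24.4 ± 4.69 FPKM for WT against 22.8 ± 3.77 FPKM for KO (SD, n = 4 each), with a change of -0.09 and an interval of -0.53 to 0.35.

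The remaining dehydrogenases had changes of either sign. Acadsb, for short branched chains, was at 11.8 ± 2.005 FPKM for WT against 11.2 ± 2.85 FPKM for KO (SD, n = 4 each) with a change of -0.08. Acad11 was the highest of Acad9 to Acad12, at 63.9 ± 13.1 FPKM for WT against 51.8 ± 14.5 FPKM for KO (SD, n = 4 each) and a change of -0.32. Acad10 was at 7.396, 2.26, 2.19 and 2.44 FPKM (WT 1 to WT 4) against 2.84, 4.77, 2.34 and 4.92 FPKM (KO 1 to KO 4). WT 1 stood above the other WT libraries in Acad10, and the groups overlapped (change 0.14). Acad12 had the lowest level of the 32 members, at 1.09, 0.792, 0.774 and 1.05 FPKM (WT 1 to WT 4) against 1.297, 2.64, 0.895 and 1.32 FPKM (KO 1 to KO 4). Its WT mean of 0.927 FPKM was under the 1 FPKM needed for testing, so it was tested only because of the KO values, and its change was 0.36 ± 0.22 (SE; 95% interval -0.13 to 0.85; limma adjusted p = 0.687). Acad10 and Acad12 lie next to each other on chromosome 5, with starts 41572 bases apart.

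**Figure D2:**
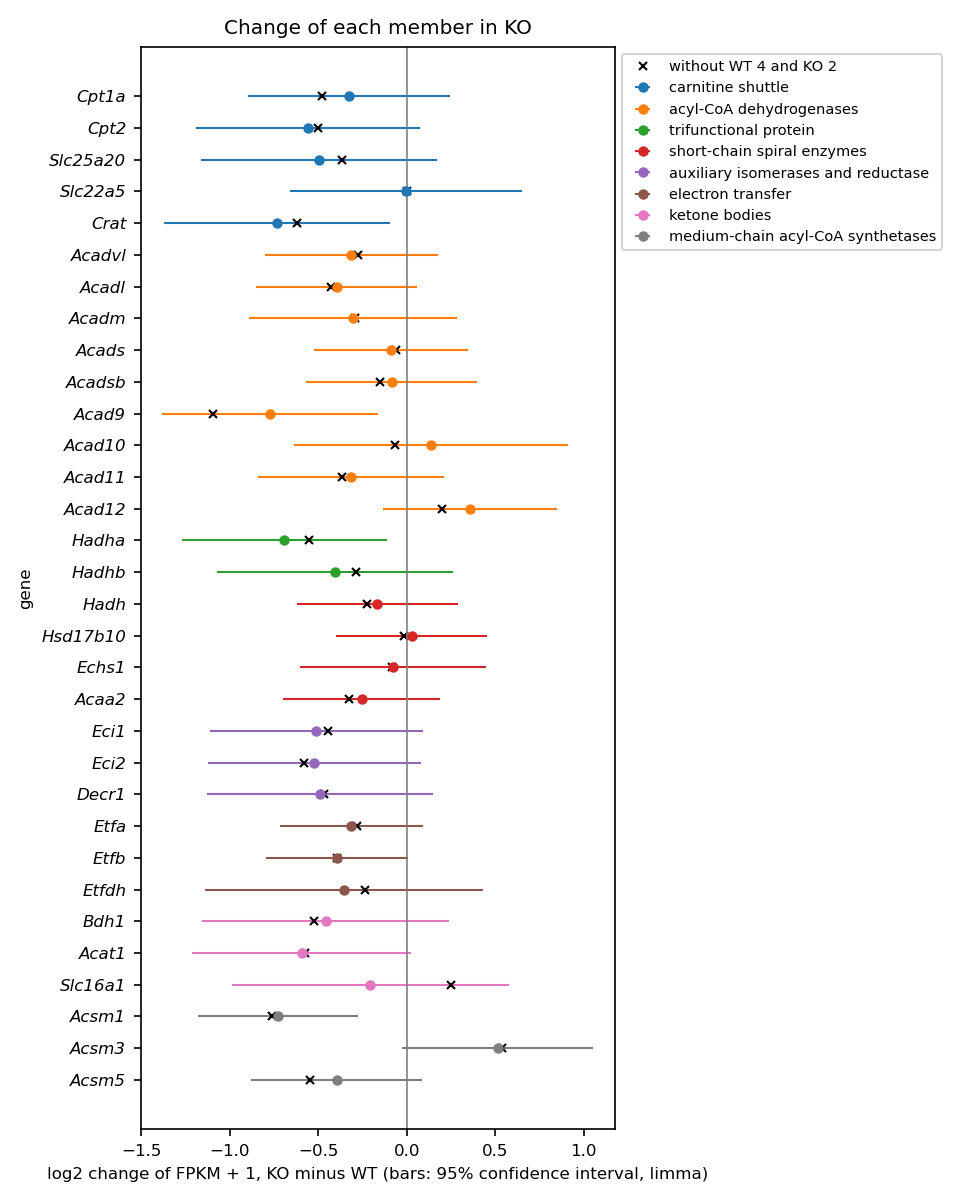
Change of each of the 32 genes (rows, coloured by step) in KO against WT on the log2(FPKM + 1) scale, with 95% confidence intervals from limma that are not adjusted for the number of genes; crosses give the change without WT 4 and KO 2. The points of 28 genes lie below 0, and the intervals of 4 (Crat, Acad9, Hadha and Acsm1) leave out 0.

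The mitochondrial trifunctional protein carries out the later reactions on long chains. Its alpha subunit, from Hadha, holds the hydratase and 3-hydroxyacyl-CoA dehydrogenase activities, and its beta subunit, from Hadhb, the thiolase. Hadha was at 73.7, 45.3, 39.9 and 88.4 FPKM (WT 1 to WT 4) against 34.9, 40.5, 32.7 and 35.96 FPKM (KO 1 to KO 4). The 4 KO libraries were close together, while WT 1 and WT 4 were well above WT 2 and WT 3, and KO 2 was just above WT 3. The means were 61.8 ± 23.1 FPKM for WT against 36.02 ± 3.297 FPKM for KO (SD, n = 4 each), and the change was -0.69 ± 0.26 (SE; 95% interval -1.27 to -0.11; limma adjusted p = 0.389). The exact two-sided permutation test of Hadha gave p = 0.0571. Hadhb was at 27.1, 18.3, 24.1 and 45.6 FPKM (WT 1 to WT 4) against 16.3, 26.6, 15.2 and 25.8 FPKM (KO 1 to KO 4). The groups overlapped in Hadhb, with KO 2 and KO 4 above WT 2 and WT 3, and the change was -0.41 ± 0.30 (SE; 95% interval -1.07 to 0.26; limma adjusted p = 0.772). The ratio of Hadha to Hadhb in FPKM was 2.195 ± 0.484 for WT against 1.804 ± 0.401 for KO (SD, n = 4 each), with ranges that overlap.

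Hadha and Hadhb are transcribed away from each other on chromosome 5, from RefSeq starts at 30154980 and 30155253, only 273 bases apart. The GENCODE M21 models begin at 30155162 for Hadha and 30155248 for Hadhb, nearer to each other. The window from 250 bases before to 50 bases after the Hadhb start (GRCm38.p6, chr5:30155003-30155302, plus strand) is shown because 228 of its bases also belong to the Hadha window. Capitals mark the letters GGGCGG on either strand, a GC box. Of the marked boxes only that at -90 from the Hadhb start lies wholly within the bases shared with the Hadha window.
Hadhb: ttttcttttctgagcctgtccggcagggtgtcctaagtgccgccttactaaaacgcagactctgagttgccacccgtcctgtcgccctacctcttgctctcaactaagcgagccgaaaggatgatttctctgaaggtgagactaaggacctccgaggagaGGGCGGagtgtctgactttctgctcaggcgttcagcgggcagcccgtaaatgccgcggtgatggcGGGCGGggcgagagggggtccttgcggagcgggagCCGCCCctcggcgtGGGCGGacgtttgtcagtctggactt
A GC box stood in 19 of the 28 promoter windows of members (67.9%) and in 35.7% of the 32851 windows in the RefSeq table. A window was found for 27 of the 32 members, and Bdh1 had 2. The PPAR-type direct repeat AGGTCANAGGTCA, on either strand, was in 0 member windows and in 0.0396% of all windows. With the fourth base of each repeat left free (AGGNCANAGGNCA) it was in 0 member windows and 0.381% of all. The nuclear receptor letters AGGTCA, which that repeat contains, were in 5 member windows (17.9%) and in 16.3% of all. These windows cover only the bases next to each start.

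The short-chain enzymes of the spiral had a median change of -0.12 over 4 members, the nearest to 0 of the 8 steps. Acaa2, the thiolase of medium chains and the most abundant member by FPKM, was at 158, 131, 165 and 180.2 FPKM (WT 1 to WT 4) against 107, 174, 117 and 137 FPKM (KO 1 to KO 4). KO 2 was second only to WT 4, and the change of Acaa2 was -0.25 ± 0.20 (SE; 95% interval -0.70 to 0.19; limma adjusted p = 0.787). Hadh, the 3-hydroxyacyl-CoA dehydrogenase of short chains, was at 89.5 ± 10.5 FPKM for WT against 81.02 ± 19.5 FPKM for KO (SD, n = 4 each), with a change of -0.17. Echs1, the short-chain hydratase, was at 44.4 ± 7.98 FPKM for WT against 42.95 ± 12.2 FPKM for KO (SD, n = 4 each) and Hsd17b10, a dehydrogenase with roles in isoleucine breakdown and mitochondrial RNA processing, at 33.7 ± 4.47 FPKM for WT against 34.7 ± 7.03 FPKM for KO (SD, n = 4 each). The changes of Echs1 and Hsd17b10 were -0.08 and 0.03, and both changed sign in some fits.

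Unsaturated fatty acids need extra isomerases and a reductase, and these 3 genes had like changes. Eci2, an enoyl-CoA isomerase found in mitochondria and peroxisomes, was at 47.1, 36.7, 33.9 and 58.9 FPKM (WT 1 to WT 4) against 25.6, 46.3, 21.4 and 30.5 FPKM (KO 1 to KO 4). KO 1, KO 3 and KO 4 were below every WT library of Eci2 and KO 2 was not. The change of Eci2 was -0.52 ± 0.27 (SE; 95% interval -1.12 to 0.08; limma adjusted p = 0.594). Eci1, its mitochondrial counterpart, was at 35.7 ± 13.1 FPKM for WT against 24.3 ± 6.58 FPKM for KO (SD, n = 4 each), with a change of -0.51 and of -0.29 without WT 4. Decr1, the dienoyl-CoA reductase, was at 16.2 ± 6.28 FPKM for WT against 11.2 ± 3.91 FPKM for KO (SD, n = 4 each), with a change of -0.49 and of -0.26 without WT 4.

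The electron transfer flavoprotein takes electrons from all acyl-CoA dehydrogenases, and Etfdh passes them to ubiquinone. All 3 members had a negative change (median -0.36). Etfb, the beta subunit, was at 114, 116, 94.02 and 134 FPKM (WT 1 to WT 4) against 70.9, 102, 87.3 and 87.8 FPKM (KO 1 to KO 4). Of the KO libraries of Etfb only KO 2 reached above the lowest WT library, WT 3. The means of Etfb were 115 ± 16.4 FPKM for WT against 86.98 ± 12.6 FPKM for KO (SD, n = 4 each), the change was -0.39 ± 0.18 (SE; 95% interval -0.80 to 0.01; limma adjusted p = 0.522), and the exact two-sided permutation test gave p = 0.0571. Etfa, the alpha subunit, was at 68.5 ± 10.2 FPKM for WT against 54.99 ± 8.26 FPKM for KO (SD, n = 4 each), with a change of -0.31. The ratio of Etfa to Etfb was 0.604 ± 0.104 for WT against 0.634 ± 0.0542 for KO (SD, n = 4 each), so the difference between groups was within their spread. Etfdh reached 76.5 FPKM in WT 4 beside 29.7 to 32.7 FPKM in WT 1 to WT 3, and its change of -0.36 came to -0.04 without WT 4.

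Ketone bodies are made from acetyl-CoA, and 3 members belong to that branch. Acat1, the mitochondrial acetoacetyl-CoA thiolase, was at 42.5, 26.8, 49.2 and 59.3 FPKM (WT 1 to WT 4) against 24.8, 37.4, 20.3 and 32.4 FPKM (KO 1 to KO 4). WT 2 was lower than KO 2 and KO 4, and the other WT libraries were above all of KO. The means of Acat1 were 44.4 ± 13.6 FPKM for WT against 28.7 ± 7.63 FPKM for KO (SD, n = 4 each), and the change was -0.59 ± 0.28 (SE; 95% interval -1.21 to 0.03; limma adjusted p = 0.534). Bdh1, which interconverts acetoacetate and 3-hydroxybutyrate, was at 69.5, 70.6, 55.2 and 100.1 FPKM (WT 1 to WT 4) against 46.6, 83.04, 30.2 and 63.5 FPKM (KO 1 to KO 4). KO 2 was above 3 of the WT libraries and KO 3 was the lowest of all 8, and the change was -0.46 ± 0.31 (SE; 95% interval -1.16 to 0.24; limma adjusted p = 0.738). Slc16a1, a monocarboxylate transporter that carries ketone bodies and lactate, reached 14.8 FPKM in WT 4 beside 4.56 to 4.999 FPKM in WT 1 to WT 3. Its change was -0.21 with all libraries and 0.16 without WT 4.

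The medium-chain acyl-CoA synthetases activate medium-chain and aromatic acids inside mitochondria, and their changes differed in sign. Acsm1, on chromosome 7 (GRCm38, 119607026 to 119662515 in GENCODE M21, plus strand), was at 82.1, 89.5, 73.8 and 95.2 FPKM (WT 1 to WT 4) against 50.1, 61.3, 36.2 and 59.9 FPKM (KO 1 to KO 4). It was the only member in which no KO library reached a WT library. The means were 85.2 ± 9.29 FPKM for WT against 51.9 ± 11.6 FPKM for KO (SD, n = 4 each), and KO stood at 60.9% of WT. The change was -0.73 ± 0.20 (SE; 95% interval -1.18 to -0.27; limma adjusted p = 0.187), and the exact two-sided permutation test of Acsm1 gave p = 0.0286, the smallest possible. Any gene whose groups do not overlap gets that permutation p, so it adds nothing to the separation of the groups. Over all tested genes 3.18% separated as lower and 3.05% as higher in KO. Acsm1 did not pass in any of the 8 fits that left out 1 library, where its change was -0.82 to -0.57 and its limma adjusted p 0.186 to 0.383.

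Acsm3 had the largest positive change of the members on the log2(FPKM + 1) scale, while by the ratio of means Acad12, at 166% of WT, was above Acsm3, at 145.2%. Acsm3 was at 15.9, 8.74, 16.2 and 13.9 FPKM (WT 1 to WT 4) against 14.8, 19.3, 19.1 and 26.2 FPKM (KO 1 to KO 4). KO 2, KO 3 and KO 4 were above every WT library, and KO 1 was within the WT range. The means were 13.7 ± 3.44 FPKM for WT against 19.8 ± 4.71 FPKM for KO (SD, n = 4 each), and the change was 0.52 ± 0.24 (SE; 95% interval -0.03 to 1.06; limma adjusted p = 0.534). Acsm5 was at 20.1, 20.8, 16.9 and 21.3 FPKM (WT 1 to WT 4) against 14.4, 22.2, 11.4 and 12.8 FPKM (KO 1 to KO 4). KO 1, KO 3 and KO 4 were below every WT library of Acsm5, KO 2 was the highest of all 8, and the change was -0.40 ± 0.22 (SE; 95% interval -0.88 to 0.09; limma adjusted p = 0.623). The ratio of Acsm1 to Acsm3 in FPKM was 5.17, 10.2, 4.56 and 6.86 in WT 1 to WT 4 and 3.39, 3.17, 1.89 and 2.29 in KO 1 to KO 4. The ratio was chosen after these values were seen, so it was not tested. Acsm3 shares exon bases with Eri2 (0.853 to 1.84 FPKM) and Acsm5 with Pdilt (0.606 to 1.87 FPKM), both on the opposite strand.

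**Figure D3:**
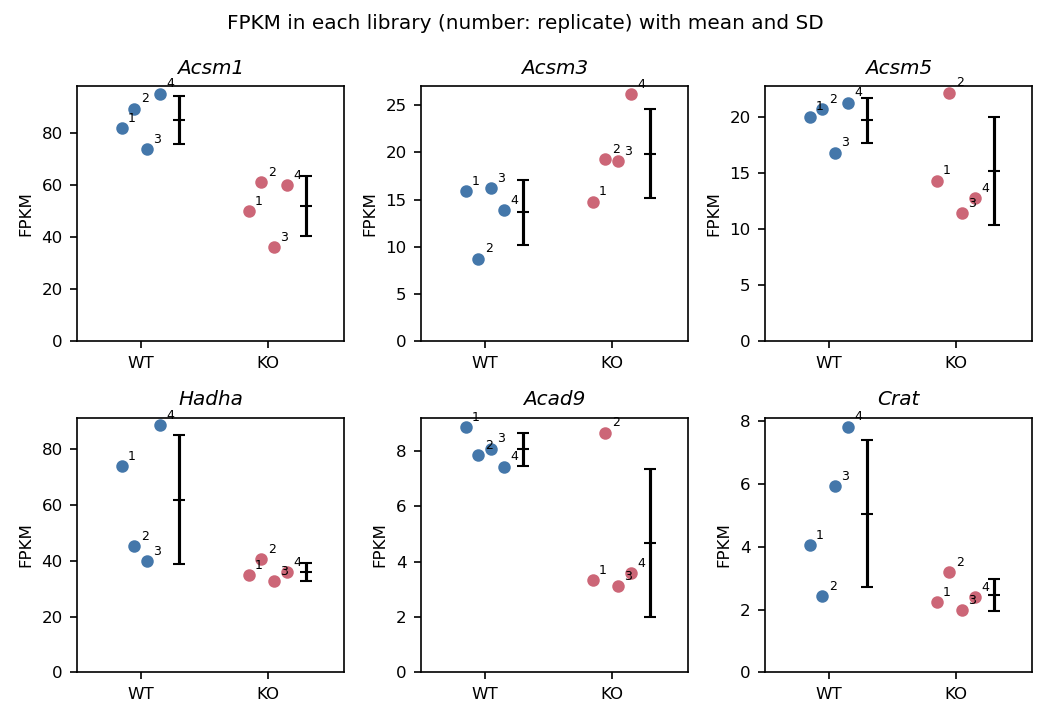
FPKM of 6 members in each library, with the replicate number beside each point and the mean and SD of each group at its right. Acsm1 separates the groups, Acsm3 is higher in 3 of 4 KO libraries than in any WT library, and in Acad9 and Acsm5 KO 1, KO 3 and KO 4 lie below the WT libraries while KO 2 does not.

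Acsm5, Acsm1 and Acsm3 lie in that order on the plus strand of chromosome 7, with RefSeq starts 91547 and 143111 bases apart. Their promoter windows (GRCm38.p6, 250 bases before to 50 after each start) are shown because the changes of these neighbours differed in sign. The RefSeq starts of Acsm5 and Acsm1 lie inside GENCODE M21 models that begin upstream, at 119519463 and 119607026. Capitals mark 3 motifs on either strand, namely the CCAAT box, the nuclear receptor letters given above for the other members, and the E-box. The windows lie at chr7:119526015-119526314, chr7:119617562-119617861 and chr7:119760673-119760972.
Acsm5: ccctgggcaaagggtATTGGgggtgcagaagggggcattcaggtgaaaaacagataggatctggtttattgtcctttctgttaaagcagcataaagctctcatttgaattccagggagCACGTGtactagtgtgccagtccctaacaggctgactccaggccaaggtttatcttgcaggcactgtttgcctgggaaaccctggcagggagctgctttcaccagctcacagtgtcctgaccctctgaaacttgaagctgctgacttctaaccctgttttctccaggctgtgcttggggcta
Acsm1: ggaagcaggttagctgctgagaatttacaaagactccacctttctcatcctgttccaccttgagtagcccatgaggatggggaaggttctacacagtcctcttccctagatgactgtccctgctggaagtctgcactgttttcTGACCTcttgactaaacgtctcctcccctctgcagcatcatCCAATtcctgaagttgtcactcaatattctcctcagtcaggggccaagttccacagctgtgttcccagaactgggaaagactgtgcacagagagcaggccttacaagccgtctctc
Acsm3: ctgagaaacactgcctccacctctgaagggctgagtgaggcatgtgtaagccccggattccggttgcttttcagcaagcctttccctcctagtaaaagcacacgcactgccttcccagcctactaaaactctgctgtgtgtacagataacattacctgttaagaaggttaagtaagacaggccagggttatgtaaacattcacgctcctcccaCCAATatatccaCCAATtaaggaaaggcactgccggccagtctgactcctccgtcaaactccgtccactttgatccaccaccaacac
The CCAAT letters stood in all 3 windows, at 2 places in that of Acsm3, and in 11 of the 28 member windows (39.3%) against 37.4% of all windows. The AGGTCA letters stood in the Acsm1 window only, and the E-box CACGTG in the Acsm5 window only. None of the 3 held a GC box, and the letters TATAAA were in 0 member windows against 13.6% of all windows. No peak or methylation data bear on these windows here.

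Leaving out KO 2, or WT 4 and KO 2, changed how many members separated the groups. KO 1, KO 3 and KO 4 lay below WT 1 to WT 4 for 13 members, and these are the same 13 that lay below WT 1 to WT 3. They were Cpt1a, Slc25a20, Crat, Acadl, Acadm, Acad9, Hadha, Eci1, Eci2, Decr1, Etfb, Acsm1 and Acsm5. In that direction 4.81% of all genes separated without KO 2 and 6.84% without both libraries. Since KO 2 was set aside for its high values, this count is a description and was not tested. Without WT 4 and KO 2 the change was negative in 28 members, but not the same ones: Slc22a5 and Slc16a1 were then positive, and Acad10 and Hsd17b10 negative. Without WT 4 alone the step medians were nearer to 0, at -0.24 against -0.50 in the carnitine shuttle, -0.11 against -0.30 in the dehydrogenases, -0.33 against -0.55 in the trifunctional protein and -0.03 against -0.12 in the short-chain enzymes. They were -0.29 against -0.51 in the enzymes of unsaturated chains and -0.22 against -0.36 in electron transfer. They were -0.30 against -0.46 in the ketone body genes and -0.36 against -0.40 in the medium-chain synthetases. Without KO 2 alone the step medians were farther from 0. In the same order they were -0.64, -0.41, -0.64, -0.24, -0.69, -0.47, -0.68 and -0.58.

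The genes that supply and control the pathway were read from lists outside the members. Of 18 genes of acyl-CoA supply and shuttle control 12 were tested, with 5 positive and 7 negative changes (median -0.06), and 0 passed. Acsl1, the main acyl-CoA synthetase of liver, had the smallest p there and was at 132, 135, 155 and 223 FPKM (WT 1 to WT 4) against 62.9, 86.4, 50.9 and 72.5 FPKM (KO 1 to KO 4). Every KO library was below every WT library of Acsl1, the limma adjusted p was 0.0507, and it was 0.0395 to 0.1396 in the fits that left out 1 library. Of 17 mitochondrial enzymes of amino acid, choline and propionyl-CoA breakdown 6 had a positive and 11 a negative change (median -0.13), and 0 passed. Bckdhb, a subunit of the branched-chain ketoacid dehydrogenase, had the smallest p there, at 27.9 ± 7.21 FPKM for WT against 17.4 ± 3.47 FPKM for KO (SD, n = 4 each) with a limma adjusted p of 0.350.

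Of 14 regulators of fatty acid oxidation 5 had a positive and 9 a negative change (median -0.10), and 0 passed. Ppargc1b, a coactivator of mitochondrial genes, had the smallest p, at 1.88 ± 0.804 FPKM for WT against 5.57 ± 3.29 FPKM for KO (SD, n = 4 each) with a limma adjusted p of 0.324. Ppara itself was at 45.2 ± 11.2 FPKM for WT against 36.98 ± 11.7 FPKM for KO (SD, n = 4 each). WT 4, the library with the highest oxidation genes, had the second lowest Ppara value at 29.6 FPKM, and KO 1 the lowest at 27.8 FPKM. KO 2 was high in Ppara too, at 54.1 FPKM against 27.8 to 33.2 FPKM in the other KO libraries.

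Other PPAR-alpha targets were also highest in WT 4. Their median log2(FPKM + 1) was 4.74, 5.21, 5.18 and 6.50 in WT 1 to WT 4 and 4.65, 5.50, 4.15 and 3.79 in KO 1 to KO 4. Of 15 genes 13 were tested, with 3 positive and 10 negative changes (median -0.23, and -0.01 without WT 4), and 0 passed. Acot1, a cytosolic thioesterase, had the smallest p and was at 3.99, 4.48, 5.32 and 17.3 FPKM (WT 1 to WT 4) against 1.97, 3.81, 0.504 and 0.532 FPKM (KO 1 to KO 4). WT 4 was well above every other library in Acot1, and KO 2 was the highest of KO. Dbp and Ppara were picked out after their values were seen. The clock output gene Dbp gave 0.569 FPKM in WT 4 beside 20.8 to 58.9 FPKM in the other 7 libraries, and the summed level of 12 clock genes was 63.7 FPKM in WT 4 and 130.2 to 214 FPKM elsewhere. Of the 10 clock genes tested 6 had a positive and 4 a negative change and 0 passed. Hlf had the smallest p there, at 14.1 ± 1.38 FPKM for WT against 7.96 ± 2.85 FPKM for KO (SD, n = 4 each) with a limma adjusted p of 0.206. Time of collection is not given in the labels, and the part of these genes or of the macrophage markers in the members' values was not tested.

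The nuclear-encoded respiratory chain, which takes up the electrons of fatty acid oxidation, was set beside the members. Of 29 genes, citrate synthase among them, 12 had a positive and 17 a negative change (median -0.03), and 0 passed. Ndufv1, a subunit of complex I, had the smallest p, at 33.9 ± 2.99 FPKM for WT against 23.9 ± 2.53 FPKM for KO (SD, n = 4 each) with a limma adjusted p of 0.289. The median log2(FPKM + 1) of these genes was 5.28 to 5.66 in WT and 5.21 to 5.69 in KO. Their median change was that of all tested genes, -0.03, beside -0.34 for the oxidation members, and this difference between lists was not tested.

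**Figure D4:**
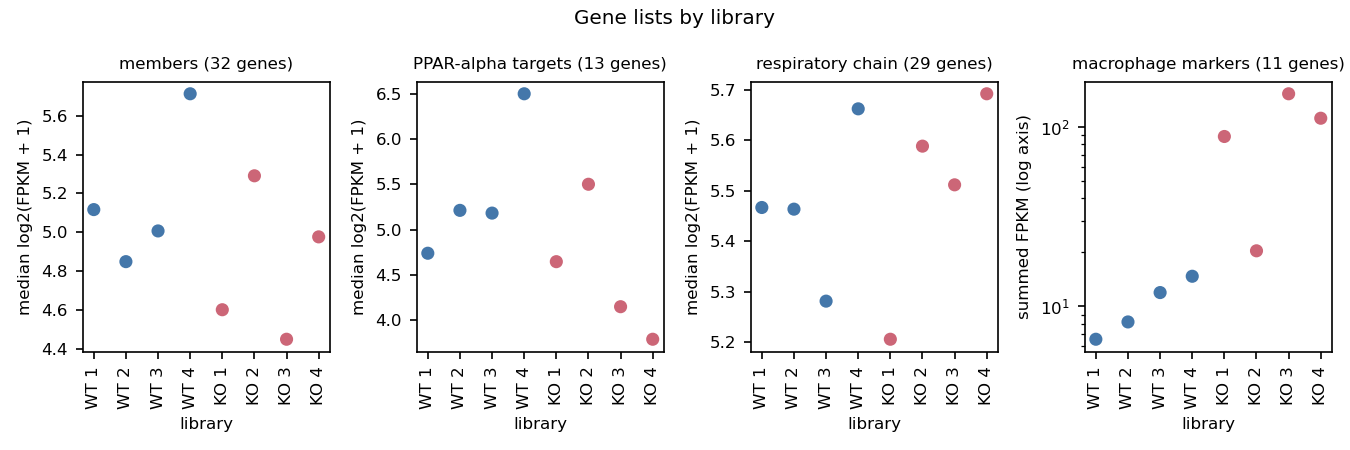
Level of 4 gene lists in each library, blue for WT and red for KO: the median log2(FPKM + 1) of the 32 members, 13 PPAR-alpha targets and 29 respiratory chain genes, and the summed FPKM of 11 macrophage markers on a log axis. WT 4 is highest in the first 2 panels and KO 2 is the highest KO library there, while KO 2 is the lowest KO library for macrophage markers at 20.4 FPKM.

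By level per length in WT, the members ran from Acaa2 (158 ± 20.8 FPKM), Etfb (115 ± 16.4 FPKM) and Hadh (89.5 ± 10.5 FPKM; SD, n = 4 each) down to Acad12. WT ranges of neighbours in that order overlapped except Acadsb above Acad9 (lowest 9.29 against highest 8.85 FPKM) and Acad10 above Acad12 (lowest 2.19 against highest 1.09 FPKM). For instance Hadh at 78.1 to 102 FPKM and Acsm1 at 73.8 to 95.2 FPKM did not differ beyond their spread. The summed FPKM of the 32 members was 1339, 1169, 1238 and 1771 in WT 1 to WT 4 and 874, 1408, 899 and 1149.9 in KO 1 to KO 4. The sums of KO 2 were thus above those of WT 1 to WT 3. Of the 32 genes 12 share annotated exon bases with another gene in GENCODE M21, and reads there could belong to either gene. The partners at the highest levels lie on the same strand, Gm45233 beside Etfb at 47.1 to 86.96 FPKM and Gm28305 beside Acad11 at 16.9 to 40.2 FPKM.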

How the data were processed

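The data are bulk RNA-seq of 4 WT and 4 KO mouse liver samples. The authors deposited 1 table of FPKM values per gene and library, and per the labels' protocols total RNA was made into Nugen libraries. TopHat, edgeR and mm10 appear in the submitters' processing notes, with no versions or roles. No source used here names the program behind the FPKM or its strand setting.

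Genes with a mean of at least 1 FPKM over the 8 libraries (11266 of 35638) were tested on log2(FPKM + 1), with no further scaling, by limma 3.58.1 with an intensity trend in R 4.3.3. P-values were adjusted by Benjamini-Hochberg over all tested genes, at a threshold of 0.05. Single genes were also tested by an exact two-sided permutation of the 8 FPKM values. A fold on this scale understates the change of low genes. The number of reads per library can be estimated only roughly, so no count test was run.

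The members and lists were chosen with earlier results of these data known. All 32 members are reported. Values in every library are given at least for members whose groups do not overlap and for the member with the smallest p in each step, and of each other pathway list described the gene with the smallest p is named. Marker lists of cell types are given by their sums. A further list of ketone body genes is not reported here. Gene positions are from GENCODE M21, whose IDs matched 99.4% of the table, and promoter windows from the RefSeq table for GRCm38.p6. Alternatives were the pseudocount (0.1 or 5), the filter (none or 5 FPKM), the scaling, the trend, library weights, a replicate block and libraries left out. Figures were drawn with Python 3.11.15 and matplotlib 3.10.9.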

Additional observations from a re-analysis of the deposited data

Results flagged for a closer look

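The 32 genes in WT and KO gave 64 groups of 4 values. In 7 of them 1 library lay beyond Dixon's 95% limit for distance from the other 3. For 1 group of normally distributed values chance passes that limit about 1 time in 20. The 64 groups share the same 8 libraries, so the count of 7 was not tested against that rate. WT 4 was the library beyond the limit 4 times: Slc25a20 at 32.7 FPKM, Eci1 at 55.3 FPKM, Etfdh at 76.5 FPKM and Slc16a1 at 14.8 FPKM. KO 2 was that library for Cpt1a at 71.1 FPKM and Acad9 at 8.65 FPKM. The remaining one was Acad10 in WT 1, at 7.40 FPKM. In all 7 the library was the highest of its group.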

How the results depend on the processing

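Of 604 values of single members under 19 alternatives, 581 kept their direction and side of the threshold, 21 in 7 members changed sign and 2 passed the threshold anew, both in Acad9. The change was negative under every alternative run in 23 members and positive in 2. Members past the threshold numbered 0 under every alternative except without KO 2 and without WT 4 and KO 2 together, each with 1 (range 0 to 1 over the 8 fits that left out 1 library). All genes past the threshold numbered 86, but 54 with a pseudocount of 5 FPKM. With a minimum mean of 5 FPKM, which left 28 members, all genes past the threshold numbered 27. With 1 library left out they numbered 36 to 134, highest without KO 2, and 106 without WT 4 and KO 2 together. Members whose groups do not overlap numbered 1, but 3 with equal sums, 4 with quantile normalization, 3 with median ratio scaling, 13 without WT 4 and KO 2, and 1 to 13 with 1 library left out (13 without KO 2, 3 without WT 2 or WT 3, 2 without KO 1 or KO 3). Over all genes the shares with no overlap, lower and higher in KO, were 5.01% and 2.01% with equal sums, 3.65% and 3.99% with quantile normalization, 3.28% and 4.10% with median ratio scaling, 6.84% and 8.54% without WT 4 and KO 2, and 4.81% and 4.70% without KO 2, and with another library left out they were 4.11 to 6.59% and 3.70 to 5.97%. The median change of the members was -0.51 to -0.21 with 1 library left out. The cause of these differences was not tested.

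With the replicate number as a block, 0 members and 24 of all genes passed. Same-numbered WT and KO libraries had correlations of deviations of 0.0964, -0.0668, 0.0151 and 0.250. The KO library that correlated best with WT 1 to WT 4 was KO 1, KO 1, KO 3 and KO 4. These correlations alone cannot show whether same-numbered samples were paired.

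The sign turned in 7 members. Slc22a5 was at 0.027 with quantile normalization, 0.030 with median ratio scaling, 0.10 with array weights and 0.00257 without WT 4 and KO 2. Hsd17b10 was at -0.083 with equal sums. Without WT 4 and KO 2, Acad10 was at -0.066, Hsd17b10 at -0.016 and Slc16a1 at 0.25. With 1 library left out, the change was -0.22 to 0.22 in Slc22a5, -0.19 to 0.022 in Acads, -0.19 to 0.035 in Acadsb, -0.088 to 0.12 in Hsd17b10, -0.20 to 0.089 in Echs1 and -0.34 to 0.16 in Slc16a1, positive only without WT 4.

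With 4 libraries a group, the median 95% interval of a member was 1.15 wide on the log2 scale, so changes of the size seen in most members were not detectable, which does not show that they are absent.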
